A study of Mus musculus with 12 samples.

Results

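Mouse embryonic fibroblasts kept in WM-8014 were compared at 240 h and at 96 h of treatment, across all genes. The members are the 3 libraries of the WM-8014 240 h group and the 3 of the WM-8014 96 h group, taken by their labels, which makes 6 of the 12 RNA libraries of the series. The cells were primary fibroblasts taken from E13.5 embryos of the C57BL/6 strain, wild type in genotype, and grown in DMEM with 10% fetal bovine serum at 3% oxygen. WM-8014, which the labels call a MYST inhibitor, was given at 10 µM. The other 6 libraries carry the same culture numbers (5, 6 and 7). They came from cells held for 96 or 240 h in 10 µM WM-2474, labelled an inactive control. They serve to show where the change under WM-8014 differed, and they enter the same fit, whose estimate of the spread all groups share. Every group received one of the compounds, and no group without a compound and no library from before treatment was analysed here.

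The MYST enzymes are histone acetyltransferases, and the family includes KAT6A and KAT6B, which work in complexes with the BRPF scaffold proteins. KAT6A is known for keeping the Cdkn2a locus in check, whose products p16INK4a and p19ARF hold back the cyclin-dependent kinases and stabilise p53. Embryonic fibroblasts in culture divide for a limited time and then enter senescence, a lasting stop of division with raised cyclin-dependent kinase inhibitors, loss of lamin B1, and secretion of matrix enzymes and signalling proteins.

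Gene counts came from strand-keeping messenger RNA libraries. The 6 WM-8014 libraries held 10659860 to 31180476 counted reads, and the whole series 10147466 to 45903190. All 12 fibroblast markers on a fixed list were tested, and their summed level was 27300 to 30000 CPM at 96 h and 40200 to 41900 CPM at 240 h. CPM, the unit of levels used here, are counts scaled to a common library total after adjustment by the trimmed mean of M values (TMM). The labels give the cells as female, whereas the Y-linked Ddx3y stood at 99.6 to 124 CPM and the X-inactivation transcript Xist at 0 to 3 reads per library in these 6 libraries. The 20 most abundant genes took 8.87 to 9.61% of the reads at 96 h and 12.6 to 12.9% at 240 h. In bulk RNA, fewer cells of a type and less RNA per cell cannot be told apart, and the p-values measure the spread between 3 cultures per group.

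The RNA profile of WM-8014 cells moved widely between 96 and 240 h. Of 14136 genes tested, 3504 (24.8%) rose and 3527 (25%) fell (edgeR quasi-likelihood test, Benjamini-Hochberg adjusted p under 0.05). A change of 2-fold or more was called for 394 genes that rose and 650 that fell, and one of 4-fold or more for 40 and 85. The first principal component carried 70.0% of the variance over the 6 libraries and separated the times, with all 3 libraries of 96 h on one side. The 3 libraries of one time did not overlap the 3 of the other for 7986 genes (56.5%). Over all genes tested the median log2 fold change was -0.017. TMM scaling itself sets the typical change near 0, so the medians of gene groups given below are relative to the typical gene. The levels of all genes tested summed to 942000 to 952000 CPM at 96 h and 1070000 to 1080000 CPM at 240 h. Summed levels of lists are to be read beside this shift. The numbers of genes that rose or fell in each list are to be read beside the 24.8% and 25% of all genes.

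Genes of cell division fell together. Of 51 genes of G2 and mitosis, 49 fell, 0 rose and 2 did not pass, with a median of -1.35 on the log2 scale, and 43 of them fell by 2-fold or more. At an unadjusted p under 0.05, 1 was higher, and DESeq2 called 0 higher. Mki67, which codes for the proliferation antigen Ki-67, read 184, 202 and 204 CPM in cultures 5, 6 and 7 at 96 h and 57.4, 62.2 and 54.1 CPM at 240 h. Every 240 h library lay far below every 96 h library, and its log2 fold change was -1.76 (SE 0.058, adjusted p = 7.26e-14). Top2a, the topoisomerase that untangles sister chromosomes, stood at 167, 191 and 171 CPM at 96 h and at 62.5, 68.8 and 57.5 CPM at 240 h (-1.48 on the log2 scale, adjusted p = 3.34e-12). Its groups did not overlap either. The kinetochore protein gene Cenpf fell by 1.66 on the log2 scale (SE 0.063), the spindle checkpoint kinase gene Bub1b by 1.51 (SE 0.071) and the condensin gene Smc4 by 1.09 (SE 0.049).

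DNA replication genes fell as well. Of 54 genes, 53 fell, 0 rose and 1 did not pass, and the median log2 fold change was -0.89 (also 0 higher at an unadjusted p under 0.05 and in DESeq2). Uhrf1, which brings the maintenance DNA methyltransferase to replicated DNA, read 42.9, 48.3 and 43.8 CPM at 96 h and 12.4, 16.6 and 14.7 CPM at 240 h (-1.58 on the log2 scale, SE 0.087, adjusted p = 4.97e-11). The methyltransferase gene itself, Dnmt1, stood at 141, 151 and 140.5 CPM and then at 78.6, 77.4 and 77.1 CPM (-0.89, adjusted p = 8.95e-14). In both genes every 240 h library lay below every 96 h library. The ligase gene Lig1 fell by 1.18 on the log2 scale, the replisome gene Wdhd1 changed by -1.32, and Cdc6, a licensing factor of replication origins, by -1.30 from low levels of 5.43, 4.71 and 6.29 CPM.

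Promoters of mitotic genes that fell are shown for a short element, and the 4 printed were picked for holding it. Many promoters of this class are known to hold a cell cycle genes homology region (CHR), a site for MuvB complexes, which repress or activate with the cell cycle phase, often near a CCAAT box bound by NF-Y. RefSeq promoter stretches (from 250 bases before to 50 after the start, build GRCm38.p6) were found by symbol for 41 of the 51 genes of G2 and mitosis (80.4%). The letters TTTGAA, on either strand, occurred in 29 of the 41 (70.7%), against 20.2% of all 27025 genes in the same promoter table. CCAAT on either strand occurred in 30 of the 41 (73.2%), against 41.1% of all. Only 43 of the 54 replication genes (79.6%) had an entry, under the 80% needed, so this count was void for them. Genes with 1 promoter entry were looked at in order of p for the change over time, smallest first, with 1 chromosome left out. The 4 printed are the first that held TTTGAA between 120 bases before and 30 bases after the start, among 7 looked at. Each run is that stretch of 150 bases, read 5′ to 3′ on the gene's strand, and capitals mark TTTGAA or its reverse complement TTCAAA.
Cenpf, chr1:189688057-189688206, minus strand: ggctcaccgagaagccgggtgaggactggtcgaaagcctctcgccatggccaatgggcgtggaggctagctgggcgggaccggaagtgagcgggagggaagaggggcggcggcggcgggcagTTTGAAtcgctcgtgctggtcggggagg
Mki67, chr7:135716350-135716499, minus strand: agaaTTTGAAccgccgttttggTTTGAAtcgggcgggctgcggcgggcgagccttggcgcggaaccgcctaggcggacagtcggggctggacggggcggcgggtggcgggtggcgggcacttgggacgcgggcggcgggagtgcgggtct
Racgap1, chr15:99651627-99651776, minus strand: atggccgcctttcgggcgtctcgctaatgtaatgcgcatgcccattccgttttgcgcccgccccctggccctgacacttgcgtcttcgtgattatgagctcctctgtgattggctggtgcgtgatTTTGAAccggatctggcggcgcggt
Ckap2l, chr2:129297183-129297332, minus strand: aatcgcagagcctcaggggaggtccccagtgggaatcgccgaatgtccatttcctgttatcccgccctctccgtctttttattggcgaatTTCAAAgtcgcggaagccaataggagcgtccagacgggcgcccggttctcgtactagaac
Mki67 holds the element in 2 places and the other 3 genes hold it once in the stretch. Racgap1, a regulator of the cleavage furrow, fell by 1.21 on the log2 scale and Ckap2l, a spindle protein gene, by 1.37. A match of letters is a description of the sequence and shows no binding.

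**Figure D1:**
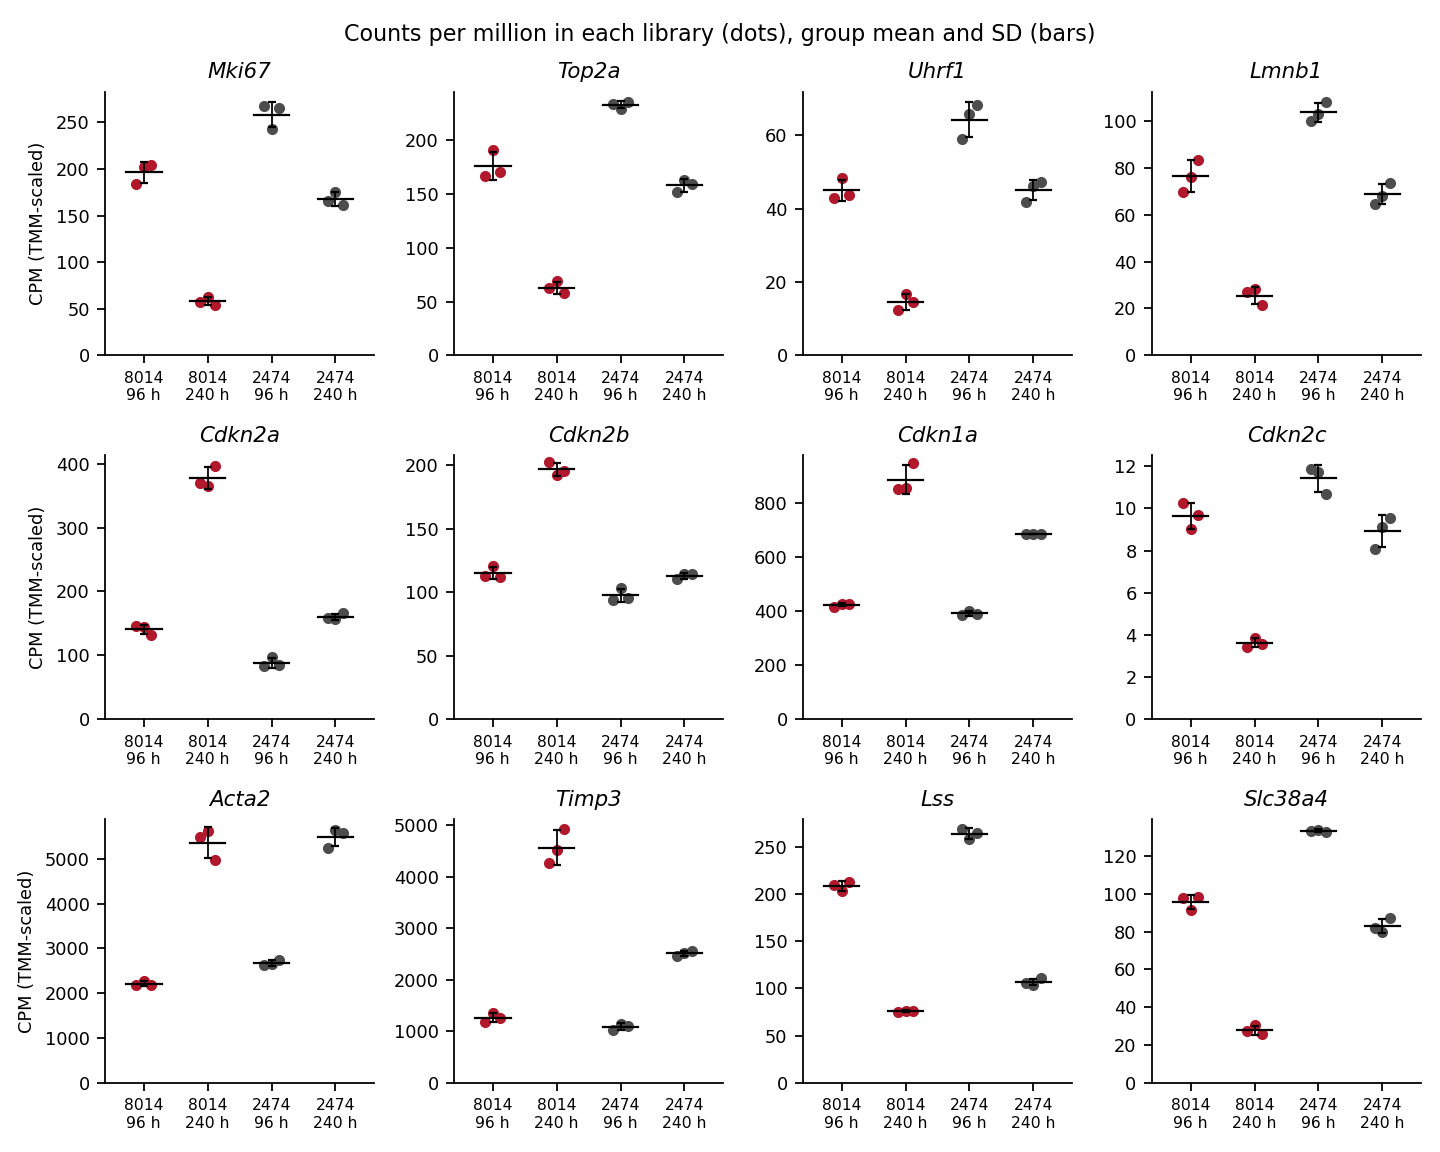
CPM (linear axis from 0) of 12 genes in each of the 12 libraries, in the groups WM-8014 and WM-2474 at 96 and 240 h, with dots for single libraries and bars for the mean and SD of 3. Division genes (Mki67, Top2a, Uhrf1), Lmnb1, Cdkn2c, Lss and Slc38a4 are lower at 240 h under WM-8014, and Cdkn2a, Cdkn2b, Cdkn1a, Acta2 and Timp3 are higher, with no overlap between the times.

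The cyclin-dependent kinase inhibitors split. All 7 passed, 3 higher and 4 lower. Cdkn2a (chr4:89274473-89294619, build GRCm38.p6, minus strand), whose single count here joins the transcripts of p16INK4a and p19ARF, read 146, 144 and 132 CPM at 96 h and 371, 365 and 397 CPM at 240 h. That is a 2.69-fold rise (log2 1.43, SE 0.055, adjusted p = 1.01e-12). Its neighbour Cdkn2b (chr4:89306289-89311032), which codes for p15INK4b, stood at 113, 121 and 112 CPM and then at 202, 193 and 196 CPM (0.77, adjusted p = 1.92e-12). Cdkn1a, the p53 target that codes for p21, read 416, 427 and 425 CPM and then 853, 856 and 947 CPM (1.07, adjusted p = 2.61e-15). In these 3 genes every 240 h library was above every 96 h library. The inhibitors that fell were Cdkn1b (p27KIP1), from 50 to 23.4 CPM on average, Cdkn2c (p18INK4c), from 9.64 to 3.62, Cdkn2d (p19INK4d), from 15.9 to 10.1, and Cdkn1c (p57KIP2), from 56.4 to 12.9. Their log2 fold changes were -1.10, -1.39, -0.66 and -2.17, with adjusted p of 1.21e-10, 2.38e-09, 1.19e-06 and 0.000383. The summed level of the 7 genes was 808 to 814 CPM at 96 h and 1460 to 1590 CPM at 240 h.

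Of a list of 18 senescence and nuclear lamina genes, 13 fell (72.2%), 3 rose (16.7%) and 2 did not pass, with a median of -0.41. Over all genes 25% fell and 24.8% rose. The list was not sorted by a direction expected in senescence, so its counts do not measure a senescent state. Lmnb1, which codes for lamin B1 of the nuclear envelope, read 69.6, 76.3 and 83.3 CPM at 96 h and 26.8, 28.2 and 21.4 CPM at 240 h (-1.58 on the log2 scale, SE 0.096, adjusted p = 2.75e-08). No library of one time reached into the range of the other. The genes of the chromatin proteins HMGB1 and HMGB2 fell by 0.82 (Hmgb1) and 1.68 (Hmgb2), the linker histone gene H1f0 by 0.75, and Ezh2, the histone H3 lysine methyltransferase of Polycomb, by 0.92. Several of these genes are also expressed with proliferation, and the part of fewer dividing cells in their change was not tested.

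Genes coding for factors that senescent cells are known to secrete rose more often than they fell. Of 36 genes, 28 were tested. Of those, 15 rose (53.6%), 5 fell (17.9%) and 8 did not pass (median 0.43), against 24.8% and 25% of all genes. The chemokine genes Cxcl2, Ccl8 and Ccl20 and the protease genes Mmp3, Mmp10 and Mmp12 were among those not tested. The inflammatory genes Il1a and Il1b held 4 and 0 reads over the 3 libraries of 96 h and 6 and 0 at 240 h, too few to test. A count of 0 allows up to 3 reads, which is 0.0962 to 0.281 CPM in a library of 240 h, from counting alone. Igfbp7, an insulin-like growth factor binding protein, rose from 594 to 1248 CPM (1.07), Plau, the urokinase that activates plasmin, from 101 to 241 CPM (1.26), and the metalloprotease inhibitor gene Timp2 from 1926 to 3077 CPM (0.68). Against this direction, Igfbp5 fell from 709, 519 and 559.5 CPM to 214, 176 and 221 CPM, a log2 fold change of -1.56 (adjusted p = 1.25e-05). The inflammatory chemokine gene Cxcl1 fell too (-1.04 on the log2 scale, adjusted p = 0.000966).

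Targets of the tumour suppressor p53 rose in 21 of 30 cases (70%), 1 fell (3.33%) and 8 did not pass (median 0.46). Over all genes 24.8% rose and 25% fell. Perp, a desmosome-linked membrane protein gene of the p53 programme, rose from 7.88, 8.46 and 7.37 CPM to 43.7, 44.8 and 52.7 CPM (log2 2.58, SE 0.10, adjusted p = 8.95e-14). The lowest 240 h library stood more than 5-fold above the highest 96 h library. Mdm2, which codes for the ligase that degrades p53, rose by 0.79 (adjusted p = 1.25e-12), as did Phlda3, an inhibitor of AKT signalling, by 0.69 (adjusted p = 3.42e-12). Cdkn1a belongs to this list too.

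Matrix genes, already among the most abundant, rose further. Of 39 collagens and matrix glycoproteins, 26 rose (66.7%), 4 fell (10.3%) and 9 did not pass, against 24.8% and 25% of all genes. The median log2 fold change was 0.57. The list's summed level was 62400 to 67400 CPM at 96 h and 110000 to 113000 CPM at 240 h. Thbs1, the matrix glycoprotein thrombospondin 1, rose by 1.25 on the log2 scale (SE 0.038, adjusted p = 3.3e-16), the fibrillar collagen gene Col5a1 by 1.12, the basement membrane collagen gene Col4a2 by 0.89, and Sparc, a collagen-binding glycoprotein, by 0.84. Elastic fibre genes rose in 13 of 22 cases (59.1%) and fell in 2 (9.09%), with a median of 0.25. The crosslinking enzyme genes Loxl2 and Lox rose by 1.22 and 0.45 and the fibulin gene Fbln2 by 0.50, whereas Fbln1, another fibulin, fell from 58.8 to 26.7 CPM (-1.14).

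Small leucine-rich proteoglycans, which bind collagen fibrils, did not share a direction. Of 11 tested, 5 rose (45.5%), 3 fell (27.3%) and 3 did not pass, against 24.8% and 25% of all genes. Prelp, which anchors basement membranes, read 114, 139.5 and 125 CPM at 96 h and 567, 554 and 578 CPM at 240 h (2.17, adjusted p = 2.08e-06), more than 4-fold higher on average. Biglycan (Bgn) rose by 0.63 and fibromodulin (Fmod) by 1.46, and Podnl1 fell by 0.60. Among matrix proteases and their inhibitors 15 of 26 rose (57.7%), 4 fell (15.4%) and 7 did not pass (median 0.26). Timp3, an inhibitor held in the matrix, read 1174, 1362 and 1258 CPM and then 4262, 4513 and 4923 CPM (1.85, SE 0.061, adjusted p = 2.8e-12). The protease genes Adamts12 and Mmp11 rose by 1.07 and 0.53.

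Nearly all contractile genes rose. Of 26 genes of smooth muscle actin, its partners and stress fibres, 25 rose (96.2%), 1 fell (3.85%) and 0 did not pass. Over all genes 24.8% rose and 25% fell. The contractile list had a median of 0.75, and 11 of its genes rose by 2-fold or more. Acta2, which codes for smooth muscle actin, read 2180.1, 2276 and 2176 CPM at 96 h and 5483, 5630.4 and 4976 CPM at 240 h (log2 1.28, SE 0.044, adjusted p = 1.34e-15). Myl9, the regulatory myosin light chain, stood at 319, 326 and 315 CPM and then at 856, 866 and 807 CPM (1.40, adjusted p = 2.2e-17). The groups were apart in both genes. Tagln, an actin-bundling protein gene, rose by 1.18 and Lmod1, an actin nucleator gene of smooth muscle, by 1.38. Targets of the mechanical co-activator YAP and its partner TEAD rose in 13 of 19 cases (68.4%) and 0 fell (median 0.35). At an unadjusted p under 0.05, 1 was lower, and DESeq2 called 0 lower. Ccn1, a matricellular protein gene, rose by 0.80, Fjx1 by 1.45 and the YAP kinase gene Lats2 by 0.59.

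**Figure D2:**
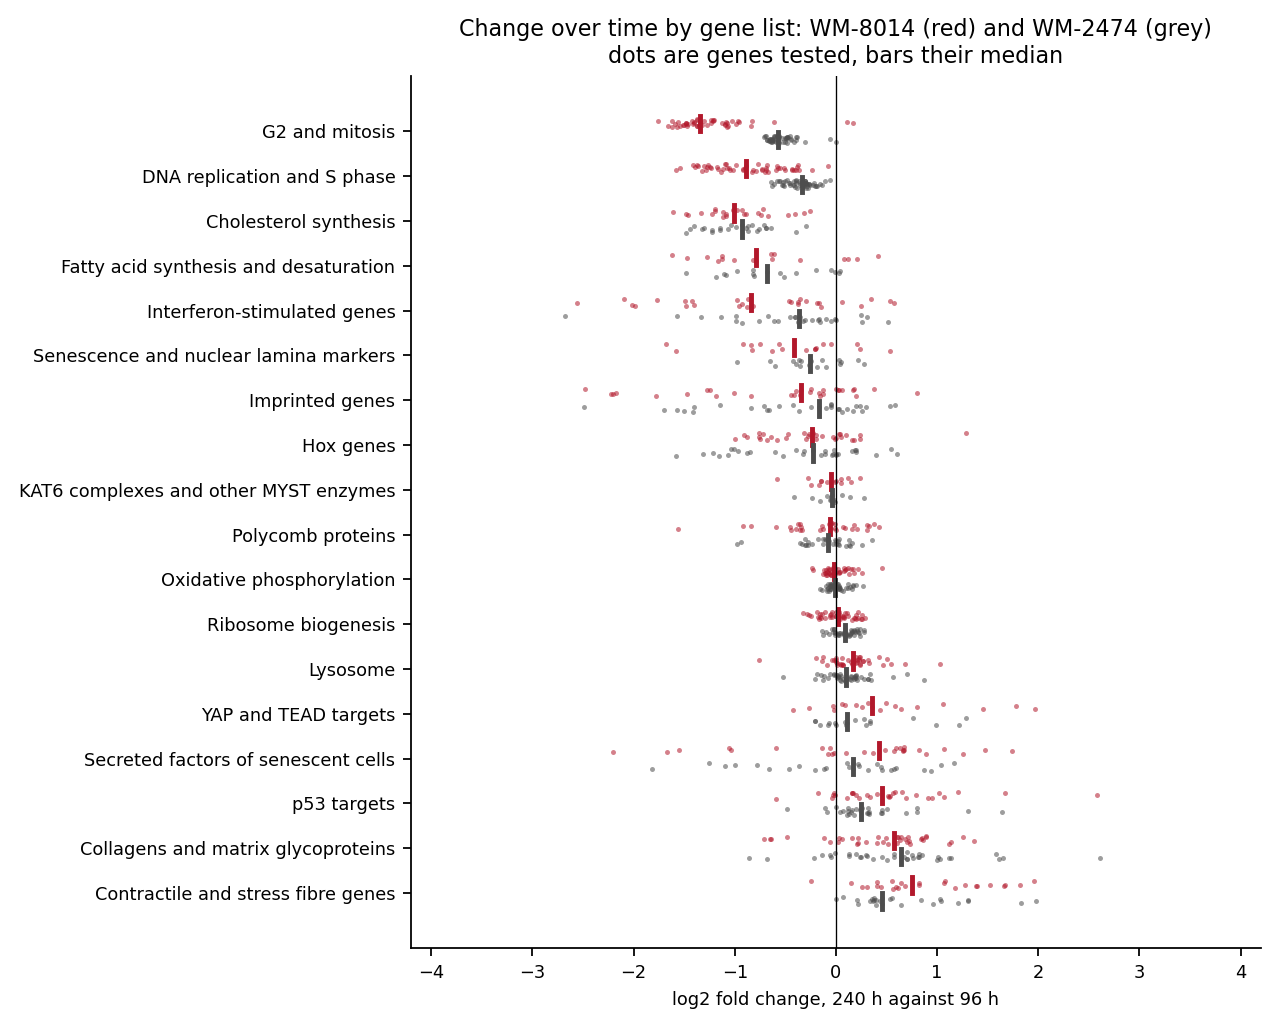
Log2 fold changes from 96 to 240 h of the tested genes of 18 lists (dots), with the median of each list as a bar, for WM-8014 in red and WM-2474 in grey. Under WM-8014 the medians run from -1.35 for G2 and mitosis to 0.75 for contractile genes.

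Lipid synthesis fell. Every one of 25 cholesterol synthesis genes fell, with -1.0 as the median log2 fold change, and DESeq2 called 0 of them higher. Lss, lanosterol synthase, read 209.6, 203 and 213 CPM at 96 h and 74.8, 76.3 and 76.3 CPM at 240 h (-1.46, SE 0.037, adjusted p = 2.2e-17). Acat2, which makes the acetoacetyl precursor, read 169.8, 159 and 184 CPM and then 55.2, 55.7 and 57.1 CPM (-1.61). The groups did not overlap in either gene. Insig1, the sterol sensor that holds back the transcription factor SREBP, fell by 1.33. Of 17 fatty acid synthesis genes tested, 13 fell (76.5%) and 3 rose (17.6%), against 25% and 24.8% of all genes (median -0.79). The desaturase genes Scd1 and Scd2 fell by 1.47 and 1.13, the polyunsaturated fatty acid desaturase gene Fads1 by 1.13, and Acly, which makes cytosolic acetyl-CoA, by 1.01. Of lipid storage genes and PPAR targets 13 of 27 fell (48.1%) and 3 rose (11.1%). Lpl, lipoprotein lipase, fell from 62.2, 49.2 and 59.5 CPM to 18.8, 18.4 and 21.9 CPM (-1.54). Acadvl, an enzyme of fatty acid oxidation, rose by 0.51. Lysosome genes rose in 26 of 45 cases (57.8%) and fell in 3 (6.67%), by little in the middle of the list (median 0.17). Hexa, Ctsd and Ctsz, which code for lysosomal hydrolases, rose by 0.54, 0.51 and 0.43, and the galactosidase gene Gla fell by 0.76.

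Interferon-stimulated genes were lower. Of 30 tested of 35, 20 fell, 3 rose and 7 did not pass (median -0.84). Gbp2, a guanylate-binding protein of host defence, read 10.9, 11.9 and 11.2 CPM and then 4.54, 3.84 and 4.04 CPM (-1.48, adjusted p = 7.78e-09). Irf1, a transcription factor of the pathway, stood at 19.2, 19.6 and 19.2 CPM and then at 9.79, 11.2 and 11.3 CPM (-0.82, adjusted p = 1.83e-07). No 240 h library overlapped the 96 h libraries in either gene. Gbp7 and Ifitm1 fell by 1.77 and 1.49. Complement and acute-phase genes fell in 8 and rose in 4 of 21 cases (median -0.26), with the plasma ferroxidase gene Cp lower by 0.86 and the complement inhibitor gene Serping1 higher by 0.65. Their shares were 38.1% and 19%, against 25% and 24.8% of all genes, and the number that fell went to 5 without culture 5 or culture 7 of the WM-8014 96 h group and to 4 without culture 7 in all groups. Of 14 chemokine and receptor genes tested of 25, 6 fell and 4 rose. Cxcl12, the stromal ligand that retains blood stem cells, fell from 435, 540.0 and 543 CPM to 228, 254 and 249 CPM (-1.05), and its scavenger receptor gene Ackr3 by 0.67.

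Stress and energy lists moved little or in both directions. NRF2 and aryl hydrocarbon receptor targets fell in 10 and rose in 6 of 23 cases, with Gstm1, a glutathione transferase gene, lower by 1.07 and Ephx1, an epoxide hydrolase gene, higher by 0.65. In the ATF4 and unfolded protein response list 10 of 32 fell and 7 rose (median -0.0061), of which 4 passed without culture 6 or culture 7 in all groups or without the 96 h library of culture 7. The serine synthesis gene Psat1 fell by 0.50, the folate enzyme gene Aldh1l2 by 0.43 and the chaperone gene Hspa5 by 0.31. Glycolysis and low-oxygen genes fell in 14 of 33 cases and rose in 4 (median -0.09). Aldoc, an aldolase gene, read 26.6, 23.8 and 26.4 CPM and then 7.87, 6.50 and 6.81 CPM (-1.89), and Ndrg1, which is raised by low oxygen, fell by 1.17. Ribosome biogenesis (9 up and 7 down of 44, median 0.024) and oxidative phosphorylation (7 up and 4 down of 41, median -0.018) had shares of changed genes below the 24.8% and 25% of all genes. The ribosome genes that fell numbered 4 without the 96 h library of culture 6 and 3 without culture 6 in all groups. Their members with the smallest p moved little, such as the nucleolin gene Ncl (-0.32) and the respiratory chain gene Cox6a1 (0.45).

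Signalling genes changed in both directions, as genes did over the whole table (24.8% up and 25% down). In the Wnt list 18 of 43 rose (41.9%) and 11 fell (25.6%). Sfrp2, a secreted Wnt antagonist, read 15, 12.4 and 14.1 CPM and then 3.33, 2.84 and 2.89 CPM (-2.23, adjusted p = 7.47e-10), and the ligand gene Wnt16 fell by 1.63. The receptor gene Fzd7 rose by 0.74, and Nkd2, a feedback inhibitor, read 11.5, 11.3 and 12.9 CPM and then 32.1, 32.4 and 35.4 CPM (1.49, adjusted p = 5.87e-11). In the TGF-beta and BMP list 20 of 44 rose (45.5%) and 9 fell (20.5%). Inhbb, an activin subunit gene, rose by 1.45, Fstl3, which binds activin, by 0.86, and the procollagen protease gene Bmp1 by 0.47, while Gdf10, a ligand, fell by 1.60. The insulin-like growth factor axis had 7 of 17 genes up (41.2%) and 5 down (29.4%). Pappa, a protease that frees the growth factor from its binding proteins, rose by 1.13, and Irs2, an adaptor of the insulin receptors, fell by 1.0.

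Developmental regulators held more genes that fell than genes that rose, against about equal shares over all genes (25% and 24.8%). Of 33 Hox genes tested, 12 fell (36.4%), 3 rose (9.09%) and 18 did not pass (median -0.24). Hoxa3, Hoxa5 and Hoxa7, of the HoxA cluster, fell by 0.68, 0.90 and 0.88, and Hoxc13, of the far end of the HoxC cluster, rose from 5.37, 6.48 and 4.26 CPM to 11.8, 13.2 and 13.9 CPM (1.28, adjusted p = 2.05e-07). Of 62 other mesenchymal and patterning transcription factor genes, 23 fell (37.1%) and 13 rose (21%). Osr1, a regulator of connective tissue progenitors, fell by 1.02, the Hox cofactor genes Meis1 and Meis2 by 0.57 and 0.38, and the Krüppel-like factor gene Klf9 rose by 0.52. Imprinted genes, which are expressed from 1 parental copy and include many fetal growth genes, fell in 16 of 31 cases and rose in 3 (median -0.35). The long noncoding RNA gene H19 read 2275, 2313 and 2393 CPM and then 444, 436 and 611 CPM (-2.23, adjusted p = 6.1e-06), the amino acid transporter gene Slc38a4 98, 91.6 and 98.1 CPM and then 27.4, 30.3 and 25.6 CPM (-1.77, adjusted p = 3.56e-16). Neither gene had overlapping groups, and the culture 7 library kept the highest H19 level at 240 h. Peg3, a zinc finger gene, fell by 1.47 and the receptor adaptor gene Grb10 by 0.45.

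The genes of the inhibited enzyme family itself changed by small amounts. Kat6a read 89.8, 90.4 and 87.3 CPM at 96 h and 80.2, 80.5 and 80.6 CPM at 240 h (-0.15 on the log2 scale, SE 0.041, adjusted p = 0.00441). Kat6b read 59.9, 55.4 and 55.8 CPM and 59.6, 55.3 and 62.5 CPM (0.047, adjusted p = 0.474), with overlapping groups. Of 14 genes of MYST enzymes and their partners, 5 fell and 2 rose, against 25% and 24.8% of all genes tested, and the median was -0.048. Without culture 6 in all groups 3 fell. The scaffold genes Jade2 and Brpf3 changed by -0.59 and 0.24, and Kat5, the catalytic gene of TIP60 complexes, fell by 0.27. Polycomb genes, which repress Cdkn2a in dividing cells, fell in 14 of 32 cases (43.8%, against 25% of all genes). The 8 that rose (25%) were near the share of all genes (24.8%). Their number became 5 with culture 5, 6 or 7 left out of all groups, or left out of 1 WM-8014 group (culture 5 or 6 at 240 h, culture 7 at 96 h). Phf19 and Suz12, partners of Ezh2, fell by 1.56 and 0.45 and the histone chaperone gene Rbbp4 by 0.40.

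The largest single-gene changes lay outside most of these lists. The 12 highest log2 fold changes among genes that met the conditions for naming ran from 2.17 (Prelp) to 2.94 (Sprr2k). Sprr2k, a small proline-rich protein of a family with near-identical copies that counting may not separate, read 1.15, 1.09 and 1.62 CPM and then 11, 10.2 and 9 CPM (adjusted p = 6.39e-09). Nppb, the B-type natriuretic peptide precursor, read 0.951, 1.16 and 1.22 CPM and then 7.16, 8.54 and 5.02 CPM (2.66). Both were under 2 CPM in every 96 h library and above 5 CPM in every 240 h library. Cacna1g, a T-type calcium channel gene, rose from 18.9, 17.8 and 18.2 CPM to 106, 92.8 and 137 CPM (2.61) and Dsp, the desmosomal plaque gene desmoplakin, from 4.08, 3.89 and 4.26 CPM to 20.1, 22.8 and 21.6 CPM (2.41). Myom1, of the sarcomere M-band, rose by 2.37, Aldh1a3, which makes retinoic acid, by 2.33, Ramp1, a receptor partner for calcitonin gene-related peptide, by 2.26, the glycosyltransferase gene Galnt16 by 2.62, the semaphorin gene Sema5b by 2.35, and the chemokine receptor gene Cxcr6 by 2.70.

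On the falling side the 12 named genes ran from -2.84 (Ppl) to -2.23 (Sfrp2). Ppl, which codes for the desmosomal protein periplakin, read 6.11, 7.43 and 6.63 CPM and then 1.01, 0.795 and 1.10 CPM (adjusted p = 4.26e-10). Lrrn3, a leucine-rich repeat membrane protein gene, read 11.4, 13.1 and 12.9 CPM and then 1.61, 1.80 and 2.60 CPM (-2.62, adjusted p = 3.24e-12). All 3 libraries of 240 h lay at under 3 CPM for both. Agtr2, the type 2 angiotensin receptor gene, fell by 2.31 (adjusted p = 0.00662), and without culture 7 in all groups the value was -2.41 and did not pass (adjusted p = 0.0889). The neutral amino acid transporter gene Slc6a15 changed by -2.32, the calpain family gene Capn6 by -2.48, Arhgap36 by -2.54, the kinase genes Rps6ka6 and Nrk by -2.45 and -2.28, Hid1 by -2.40, the integrin gene Itgb7 by -2.30, and H2-Q4, a class I histocompatibility gene with near-identical copies, by -2.27.

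**Figure D3:**
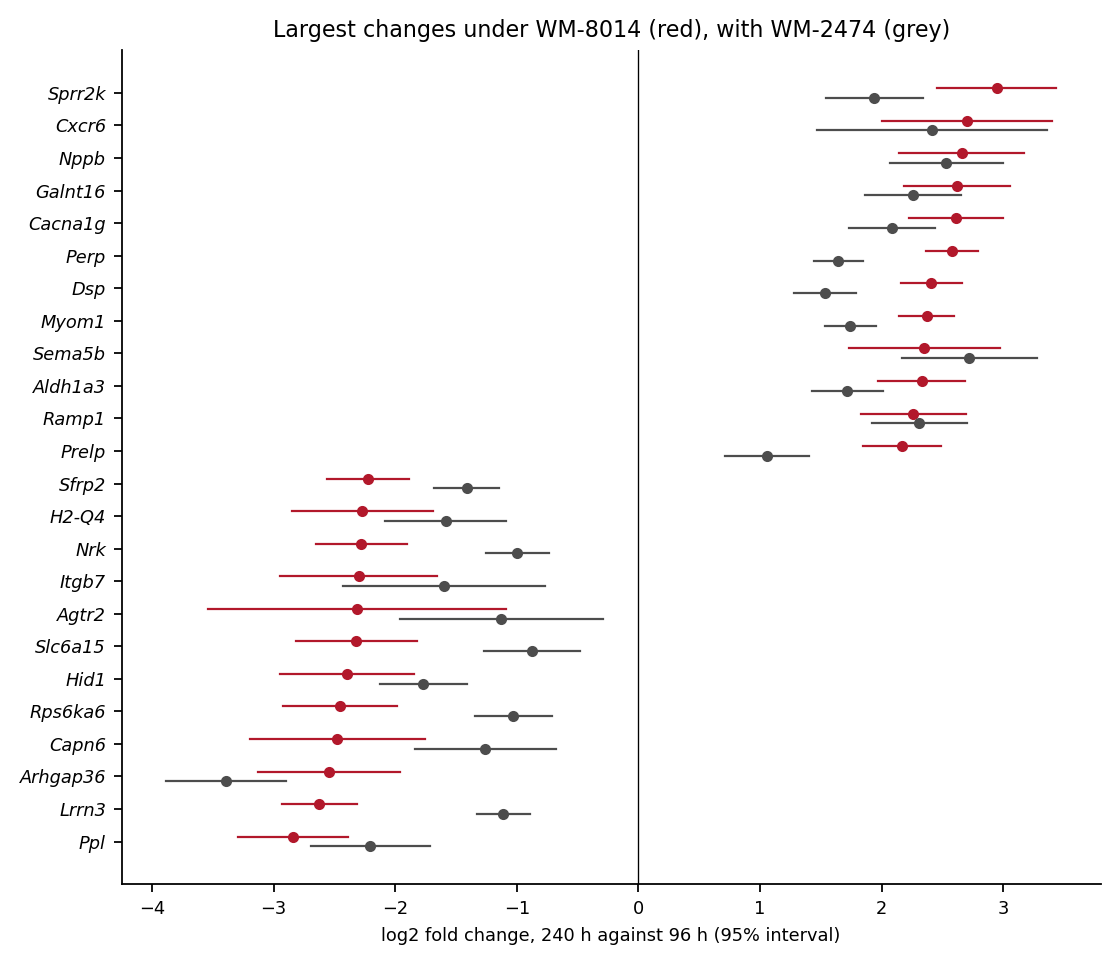
Log2 fold change from 96 to 240 h with its 95% interval for the 12 highest and 12 lowest named genes under WM-8014 (red), with the same genes under WM-2474 (grey). The WM-8014 values of the rising genes run from 2.17 to 2.94 and those of the falling genes from -2.84 to -2.23, and all 24 genes have the same sign under both compounds.

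How far these changes differ from those under the inactive control was asked with the cells held in WM-2474 for the same times. The contrasts of the compounds compare no library in common, but they share the estimate of the spread. Under WM-2474, 2800 genes rose (19.8%) and 2697 fell (19.1%). Of the genes that rose under WM-8014, 2243 also rose under WM-2474, which is 64% of the WM-8014 genes and 80.1% of the WM-2474 genes. Of those that fell, 2054 fell under both, 58.2% and 76.2% of the respective lists. The difference between the changes (the interaction of compound and time) passed for 728 genes that changed more positively under WM-8014 (5.15%) and for 782 that changed more negatively (5.53%). Of the 728, 607 rose under WM-8014, and of the 782, 676 fell. With cultures 6 and 7 left out of the WM-2474 96 h group, a choice taken from earlier results of these data, the counts were 240 and 346. That fit leaves 1 library in the group and assumes that it varies like the other groups. Opposite calls were rare: 32 genes rose under WM-8014 and fell under WM-2474, and 35 did the reverse. All of them passed the interaction test, which follows almost by itself from passing changes of opposite sign.

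Division genes fell under both compounds and further under WM-8014. The median log2 fold change of G2 and mitosis was -0.58 under WM-2474 against -1.35 under WM-8014, and 47 of 51 genes passed the interaction in the negative direction (38 without the 2 libraries). For replication genes the medians were -0.34 and -0.89, and 38 of 54 passed (24 without them). Mki67 read 267, 243 and 265 CPM at 96 h and 165, 176 and 161 CPM at 240 h in WM-2474, a log2 fold change of -0.63, and the difference was -1.13 (SE 0.078, adjusted p = 2.06e-07). The WM-2474 libraries of 240 h thus lay near the WM-8014 libraries of 96 h for this gene. Lmnb1 differed by -0.98 (adjusted p = 0.000361), Top2a by -0.92, Uhrf1 by -1.06 and Cdkn2c by -1.06.

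The changes of 5 of the 7 kinase inhibitor genes differed between the compounds, 3 more positive and 2 more negative under WM-8014. Cdkn2a read 82.3, 97.1 and 84 CPM and then 159, 156 and 166 CPM in WM-2474, a log2 fold change of 0.87, and the difference of the changes was 0.55 (SE 0.078, adjusted p = 0.000173). For Cdkn2b, with 93.8, 104 and 95.7 CPM and then 110.1, 114 and 114 CPM in WM-2474, the difference was 0.56 (SE 0.059, adjusted p = 3.12e-06). At 240 h the WM-2474 libraries lay near the WM-8014 libraries of 96 h for Cdkn2b. For Cdkn1a the difference was 0.26 (adjusted p = 0.00242), which did not pass once cultures 6 and 7 were left out of the WM-2474 96 h group (0.23, adjusted p = 0.0792). Cdkn1b and Cdkn2c fell further under WM-8014, by differences of -0.45 (adjusted p = 0.00412) and -1.06 (adjusted p = 8.03e-05). Without culture 6 in all groups the Cdkn1b difference was -0.475 and did not pass (adjusted p = 0.0519). The differences of Cdkn2d (-0.30) and Cdkn1c (-0.67) did not pass (adjusted p = 0.0957 and 0.392). Among p53 targets 11 of 30 passed the interaction in the positive direction and 0 in the negative (1 at an unadjusted p under 0.05, 0 in DESeq2). Without those libraries 3 passed in the positive direction and 1 in the negative. Perp differed by 0.93 and Mdm2 by 0.53. Contractile genes rose under both compounds (median 0.45 and 0.75), and 12 of 26 passed in the positive direction (5 without those libraries), among them Myl9 at 0.37.

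Cholesterol synthesis genes fell under both compounds. All 25 genes fell under WM-2474, with a median of -0.93 against -1.0, and 1 gene passed the interaction in each direction. Over all genes the interaction passed for 5.15% in the positive and 5.53% in the negative direction. The interaction counts of the lists in this paragraph are to be read beside these shares. For Lss the difference was -0.15 (95% interval -0.26 to -0.045, adjusted p = 0.062) and for Insig1 -0.0083 (95% interval -0.15 to 0.13, adjusted p = 0.965), and such p-values do not show that the compounds act alike. Matrix genes rose in 29 of 39 cases under WM-2474 (median 0.64), with 3 more positive and 7 more negative under WM-8014. Thbs1 rose more under WM-8014 by 0.45 and Timp3 by 0.65, and Fbln1 fell further by -0.82. In the imprinted list 3 of 31 genes fell further, with Slc38a4 at -1.09 and Peg3 at -0.63, and for H19 the difference of -0.65 did not pass (95% interval -1.18 to -0.13, adjusted p = 0.121). None of the 14 MYST and partner genes passed the interaction in edgeR (1 in each direction at an unadjusted p under 0.05, and 0 in DESeq2). Over all genes 10.7% passed, and a list of 14 genes is too short to tell 0 from that share.

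**Figure D4:**
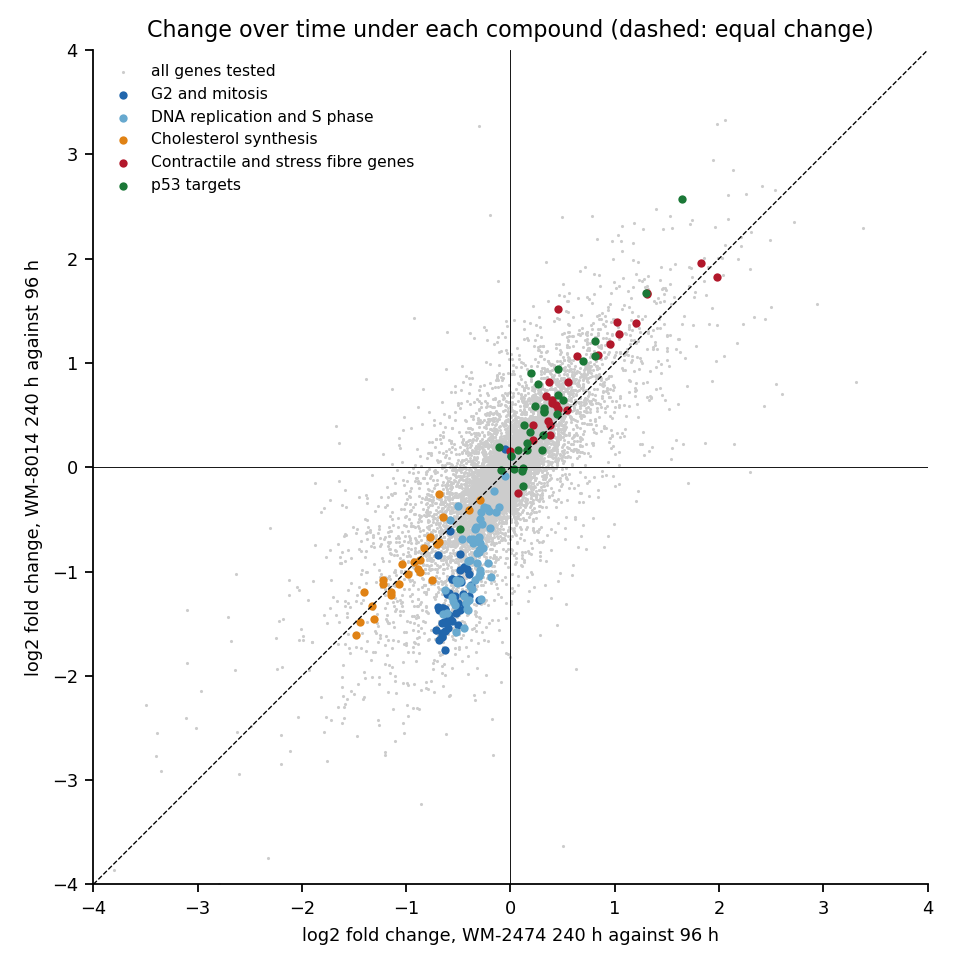
Log2 fold change from 96 to 240 h under WM-8014 (vertical) against WM-2474 (horizontal) for the genes tested, of which 5 lie outside the axes, with 5 lists in colour and a dashed line of equal change. Most genes of G2 and mitosis lie below the dashed line (47 of 51 passed the interaction), and the cholesterol genes lie along it.

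The genes with the largest difference of change were of several kinds. Hoxc13 rose by 1.28 under WM-8014 and stood at -0.39 under WM-2474, where the change did not pass, a difference of 1.68 (SE 0.34, adjusted p = 0.00211). Axin2, a target and brake of Wnt signalling, rose from 2.17, 2.52 and 2.71 CPM to 5.15, 6.60 and 7.62 CPM under WM-8014 and read 3.53, 3.69 and 3.44 CPM and 3.48, 4.18 and 3.12 CPM under WM-2474, a difference of 1.38 (adjusted p = 0.000416). All 3 WM-8014 libraries of 240 h were above every other library for Axin2. Rcan2, a calcineurin regulator, rose under WM-8014 (0.80) and fell under WM-2474 (-0.39). Further genes on this side were the monocarboxylate transporter family gene Slc16a11 (1.36), Rarres1, which responds to retinoic acid (1.13), the intermediate filament gene Des (1.07), the cell adhesion gene Nrcam (1.18) and Eva1c (1.28). The interaction of Eva1c was 1.08 without culture 6 in all groups and did not pass (adjusted p = 0.0723). The change of Nrcam under WM-8014 alone (0.45) went to 0.345 and did not pass when culture 6 was left out of the WM-8014 240 h group (adjusted p = 0.106) or culture 7 out of the 96 h group (adjusted p = 0.0881), and was 0.346 without culture 7 in all groups (adjusted p = 0.155).

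On the negative side Col15a1, a collagen of basement membrane zones, rose from 8.08, 11.5 and 11.8 CPM to 65.7, 66.1 and 68 CPM under WM-2474 and from 7.47, 8.25 and 9.20 CPM to 11.8, 12.7 and 15.8 CPM under WM-8014, a difference of -1.90 (SE 0.17, adjusted p = 2.26e-06). Its level thus rose under both compounds and by less under WM-8014. Tenm4, a teneurin adhesion gene, fell under WM-8014 (-1.26) and rose under WM-2474 (0.39), a difference of -1.65. Adcyap1r1, a receptor gene for the peptide PACAP, fell by 1.45 under WM-8014 and stood at -0.046 under WM-2474, where it did not pass. Mxd3, a MAX-binding factor gene expressed in S phase, had a difference of -1.37, Fndc4 of -1.36, the ectoenzyme gene Enpp3 of -1.36, Lrrn3 of -1.51 and Slc6a15 of -1.44. That of Slc6a15 did not pass without culture 6 (-1.10, adjusted p = 0.0551) or culture 7 (-1.69, adjusted p = 0.0626) in all groups, nor with every library thinned to the smallest total (-1.49, adjusted p = 0.0701).

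**Figure D5:**
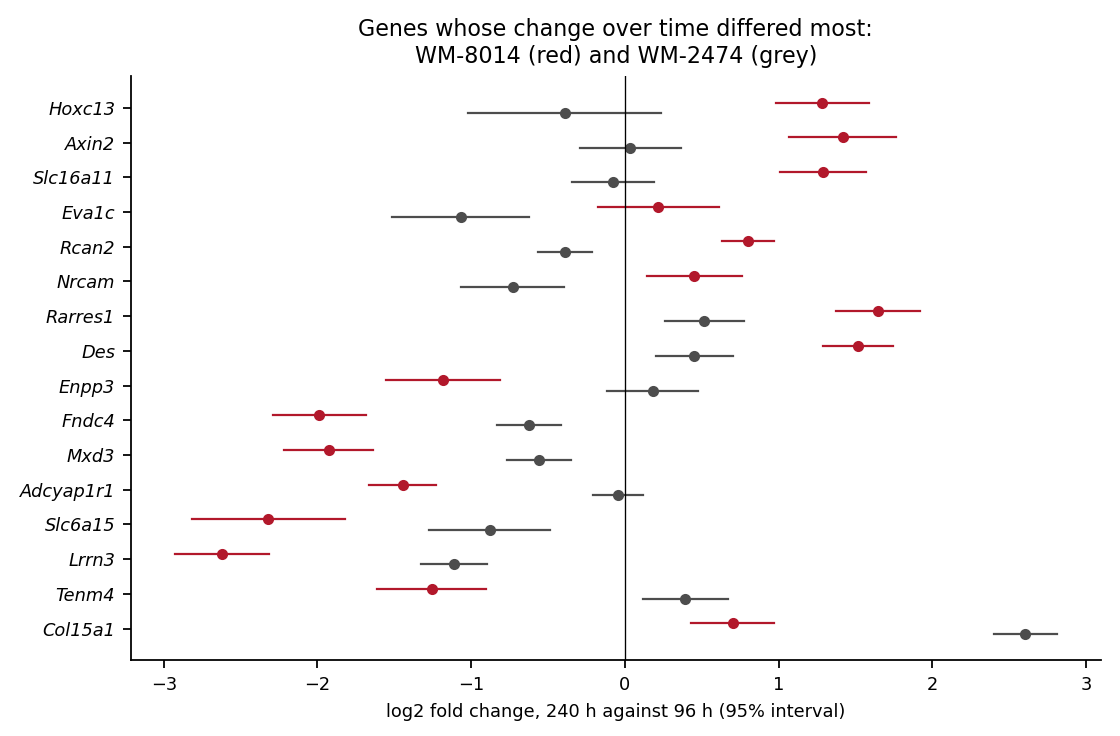
Log2 fold change from 96 to 240 h with its 95% interval under WM-8014 (red) and WM-2474 (grey) for the 8 genes with the most positive and the 8 with the most negative difference of change that met the conditions for naming. The differences run from 1.68 for Hoxc13 to -1.90 for Col15a1.

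Most markers of other cell types had too few reads to test. Of the 16 macrophage and leukocyte markers 4 could be tested (1 higher, 2 lower). The summed level of the list was 13.6 to 16.5 CPM at 96 h and 13.1 to 14.1 CPM at 240 h. Of the untested members, Ptprc, the common leukocyte antigen, held 14 and 3 reads over 3 libraries, whereas Fcer1g held 8 and 16. Endothelial markers summed to 4.71 to 7.98 and 3.58 to 4.43 CPM (5 of 10 tested, 4 lower), with Cldn5 at 0 reads at both times. Epithelial and mesothelial markers summed to 40.9 to 71.3 and 22.2 to 30.1 CPM (5 of 13 tested, 2 lower), with Epcam at 0 reads. Adipocyte markers summed to 30.3 to 36.3 and 19.5 to 21.7 CPM (4 of 10 tested, 3 lower). These 3 lists thus moved down with the lipid and interferon genes, and their part in those results was not tested. Calls of single genes in these lists were lost under some alternatives. With 1 culture left out of all groups, Cdh5 went from -1.66 to -1.43 (without culture 5, adjusted p = 0.0844), Tek from -0.92 to -0.751 (without culture 5, 0.0657), Msln from -1.94 to -1.65 (without culture 6, 0.0741), Lipe from -0.53 to -0.384 (without culture 6, 0.11) and Krt19 from -0.45 to -0.429 (without culture 7, 0.05). Without culture 7, Emcn went from -1.17 to -0.931 (adjusted p = 0.135), Kdr from -0.78 to -0.452 (0.355) and Cd68 from -0.48 to -0.303 (0.312). Without culture 6, Cd14 went from -0.58 to -0.455 (0.198). Csf1r, the macrophage marker that rose, went from 0.695 to 0.551 without culture 6 (0.099). Every one of these values kept its sign.

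Skeletal muscle markers summed to 161 to 189 CPM at 96 h and 509 to 730.0 CPM at 240 h, with 3 of 6 tested higher and 1 lower. The rise lay in Acta1, skeletal actin (127, 150.0 and 119 CPM and then 528, 628 and 416 CPM, 1.99), Des, which smooth muscle also expresses (1.52), and the myogenic and neural crest factor gene Pax3 (1.18). The defining factors Myod1, Myog and Myf5 held 2, 3 and 2 reads over the 3 libraries of 96 h and 0, 1 and 0 at 240 h. Neuronal and glial markers summed to 204 to 219 and 292 to 311 CPM, mostly through Nes, an intermediate filament gene of progenitor cells, which rose by 0.66. Of the 9 tested, 3 were higher and 3 lower, and the median log2 fold change was -0.73. By 2-fold or more, 1 rose and 3 fell. Cartilage and bone markers summed to 445 to 588 and 343 to 543 CPM, with 1 higher (11.1%) and 2 lower (22.2%) of 9. Both shares were below the 24.8% and 25% of all genes. Among the fibroblast markers 7 of 12 rose (58.3%) and 1 fell (8.33%). Col1a2, Thy1 and Vim rose by 0.49, 0.53 and 0.37, and Pdgfra, the growth factor receptor used to mark fibroblasts, read 341, 299.9 and 347 CPM and then 154, 150.0 and 153 CPM (-1.11, adjusted p = 2.8e-12). The fall of Pdgfra was larger than under WM-2474 by -0.57 (adjusted p = 3.77e-05).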

How the data were processed

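RNA was isolated with RNeasy columns and made into TruSeq Stranded mRNA libraries, per the labels' protocols. The deposited table holds raw read counts per gene, which the authors made with featureCounts against mm10 (per the submitters' processing notes). Not given in the sources used here are aligner, annotation, strand setting and version, so reads of overlapping or antisense genes may not be separated. Of 27179 gene identifiers, 25275 were matched to RefSeq symbols (GRCm38.p6), and the rest stayed in the tests. Each library column was tied to its sample through the labels' descriptions.

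The analysis used edgeR 4.0.16 in R 4.3.3: filterByExpr by group (14136 genes, at least 99.93% of reads), TMM scaling, 1 mean per group over all 12 libraries, and the quasi-likelihood F test in its robust form (two-sided), with Benjamini-Hochberg adjustment over all genes tested. The contrasts were 240 h against 96 h under each compound and their difference. The biological coefficient of variation was 4.64%. Standard errors and 95% intervals were derived from the fold change and its F statistic. Replicates differed by more than sampling noise (chi-square per degree of freedom 2.1 to 7.13). The fit was tested on simulated data. DESeq2 1.42.0 and the other alternatives are in the closing section.

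The members and the gene lists were chosen with earlier results of these data known. Genes were named by a rule: 10 whatever their values, the 12 highest and 12 lowest log2 fold changes and the 8 most positive and 8 most negative differences among genes with a mean log2 CPM of at least 1, an assigned symbol and a call and size (within 1.5-fold) that held with single libraries left out, and up to 4 genes of the smallest p per list (all of a list of 7). Some genes that met the rule are not reported here. Racgap1 and Ckap2l were named for their promoters, and unread list members for their counts. Genes of a list that had too few reads are counted as not tested. Same-numbered WM-8014 cultures at 96 and 240 h correlated by 0.064, 0.19 and 0.082 in their deviations from the group means. Between the compounds they correlated by 0.14, 0.15 and 0.16 at 96 h and by 0.064, 0.24 and 0.048 at 240 h, and under WM-2474 over time by 0.029, 0.10 and 0.074. As not all were above 0.1 and the labels name no shared animal or day, the numbers were not taken as pairs, and the blocked counts are in the closing section.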

Additional observations from a re-analysis of the deposited data

Results flagged for a closer look

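The change from 96 to 240 h differed between the compounds, by the interaction test over all genes, for 728 genes that changed more positively under WM-8014 and 782 that changed more negatively. Among the genes that met the conditions for naming, the log2 difference of the change was 1.68 for Hoxc13, 1.38 for Axin2, 1.36 for Slc16a11, 1.28 for Eva1c, 1.19 for Rcan2, 1.18 for Nrcam, 1.13 for Rarres1 and 1.07 for Des. In the other direction it was -1.90 for Col15a1, -1.65 for Tenm4, -1.51 for Lrrn3, -1.44 for Slc6a15, -1.40 for Adcyap1r1, -1.37 for Mxd3, -1.36 for Enpp3 and -1.36 for Fndc4.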

How the results depend on the processing

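Between 96 and 240 h under WM-8014 the number of genes that rose was 3504 and stayed within 1.5 times of it in all alternatives run, with 3180 by DESeq2, 3147 with libraries thinned to the smallest total and 2798 to 3561 with 1 library or culture left out. The number that fell was 3527, with 2940 by DESeq2, 3027 thinned and 2672 to 3558 with 1 left out. A fit of only the 6 WM-8014 libraries gave 3446 genes that rose and 3261 that fell. A replicate block for the culture number gave 3610 and 3626. Within WM-8014 each library correlated best with the same-numbered library of the other time. Across the compounds at 240 h, WM-8014 culture 7 correlated by 0.097 with WM-2474 culture 5 and by 0.048 with WM-2474 culture 7. The labels carry the culture numbers but name no shared animal or day. For the difference between the compounds the counts of 728 and 782 went to 240 and 346 with cultures 6 and 7 left out of the WM-2474 96 h group (1 library left there, assumed to vary like the other groups), to 315 to 802 and 409 to 801 with 1 library or culture left out, and to 917 and 923 with the block. The lowest of these were without culture 6 in all groups (315 and 409), and without culture 5 and culture 7 they were 352 and 533, and 415 and 452; the cause was not tested. No named gene changed direction past the threshold. Library totals differ 4.52-fold over the series and 2.93-fold over the WM-8014 libraries, which limits genes of a few reads most.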

Other observations

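Genes of canonical histones went the other way from the replication genes. This family was picked after values of some members had been seen, by symbol (H1f1 to H1f5, H2ac, H2bc, H3c and H4c genes). Of 62 such genes, 29 had enough reads, and 24 of those were higher at 240 h under WM-8014, 0 lower and 5 not passed (median log2 fold change 0.94), against 24.8% and 25% of all genes. H1f2, a linker histone gene, rose by 0.71 and H2bc4, an H2B gene, by 0.94, from 96 h levels of 58.6, 61.4 and 59.8 and 55.6, 54.2 and 57.3 CPM to 108, 96.4 and 91.5 and 109, 106 and 105 CPM. Under WM-2474 21 were higher and 1 lower (median 0.73), and 5 passed the interaction in the positive direction and 0 in the negative. The main transcripts of these genes are known to lack a poly(A) tail, so libraries of messenger RNA hold only a part of them, and near-identical copies make single-gene counts uncertain.

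Integrin subunit genes, picked in the same way, were higher in 10 and lower in 4 of 19 cases under WM-8014 (median 0.31). Over all genes 24.8% were higher and 25% lower. Under WM-2474, 11 integrin genes were higher and 3 lower, against 19.8% and 19.1% of all genes. Itgb1, the common beta subunit, rose by 0.89, and the partner genes Itga1, Itga5, Itga8 and Itga11 by 1.42, 1.05, 2.12 and 1.92, while Itga3 fell by 1.27. Of the 13 protein genes of the mitochondrial genome 0 were higher and 9 lower (median -0.14), against 24.8% and 25% of all genes. ND2, a subunit of complex I, stood at -0.29. The median of the 13 genes was the same under WM-2474.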
